A study of Mus musculus with 6 samples.

Results

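The histone cluster genes are the mouse genes named Hist1h, Hist2h, Hist3h and Hist4h, and they were taken as every row of the deposited count table whose symbol starts that way. There were 69 of them among the 35977 rows of the table: 6 for the linker histone H1, 19 for H2A, 19 for H2B, 12 for H3 and 13 for H4. One name ending in -ps marks a pseudogene, Hist3h2bb-ps. The measurements are bulk RNA-seq read counts from liver of mice given an adeno-associated virus of serotype 9 (AAV9). The Cre group (replicates 10, 11 and 12, 3 libraries) received AAV9-Tnnt2-Cre, in which the promoter of cardiac troponin T, active in heart muscle, drives Cre recombinase. The Cre-miR122 group (replicates 1, 2 and 4, again 3 libraries) received AAV9-Tnnt2-Cre-miR122, the same cassette with sites that are targeted by miR-122, the main hepatocyte microRNA. The comparison asks whether the vector with target sites alters the liver transcriptome. The labels give no strain, genotype, age, sex, dose or time after injection, there is no uninjected group among the libraries used, and both groups carried the Tnnt2-Cre cassette.

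Replication-dependent histone genes supply the core histones H2A, H2B, H3 and H4 and the linker histone H1 while DNA is copied in S phase. Most of their transcripts have no introns and no poly(A) tail. They end a few bases after a conserved stem-loop in the 3′ untranslated region, which is bound by the stem-loop binding protein SLBP and cut with the help of the U7 small nuclear RNA. Some of these genes also give longer, polyadenylated transcripts, which are known from differentiated and resting cells. Most cells of an adult liver do not divide. The libraries were made with an mRNA kit from total RNA. The sources used here do not say how the kit selected mRNA or whether strand was used in counting.

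The stem-loop is shown for 8 members, because it is the element that replaces the poly(A) tail in this family. It was searched in GENCODE M21 transcripts (build GRCm38) downstream of the stop codon, on the sense strand, as GG, any 2 bases, CTT, any base, T, any base, AG, any 2 bases and CC. Each line gives 5 flanking bases on either side, 5′ to 3′ in the sense of the gene, and capitals mark the 6 bases of each arm of the stem around a loop of 4 bases. Hist1h1c, Hist1h4i, Hist1h4h and Hist2h3c1 are among the members with the highest levels, and the others carry 4 of the less frequent forms.
Hist1h1c: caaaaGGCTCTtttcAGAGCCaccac
Hist2h3c1: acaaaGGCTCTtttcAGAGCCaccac
Hist1h4h: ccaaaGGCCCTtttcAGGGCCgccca
Hist1h4i: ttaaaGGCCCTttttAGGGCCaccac
Hist1h4j: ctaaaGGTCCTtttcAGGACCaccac
Hist1h3c: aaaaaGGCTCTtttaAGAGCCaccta
Hist1h3g: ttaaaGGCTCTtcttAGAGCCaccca
Hist2h2ac: aaaaaGGCTCTttttAGAGCCaccaa

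Hist1h1c lies on the plus strand with its printed bases at chr13:23739507-23739532, and Hist2h3c1 on the plus strand at chr3:96247322-96247347. The printed bases of Hist1h4h lie at chr13:23531453-23531478 on the plus strand, and those of Hist1h4i at chr13:22040961-22040986 on the minus strand. The other 4 stretches lie at chr13:21735432-21735457 on the plus strand for Hist1h4j, at chr13:23745042-23745067 on the minus strand for Hist1h3c, at chr13:23535884-23535909 on the plus strand for Hist1h3g, and at chr3:96220413-96220438 on the minus strand for Hist2h2ac. All of them are in the 3′ untranslated part of the transcript. A match was found in 46 of the 69 members, in 8 different forms, and in all 46 the 6 stem positions form Watson-Crick pairs. The search pattern itself sets every pair of the stem except those between its any-base positions, so only these were free to differ. The form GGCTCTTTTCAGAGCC was the most frequent, with 26 members of the H1, H2A, H2B and H3 classes. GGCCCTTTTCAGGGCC was found in 7 members, all of them H4 genes. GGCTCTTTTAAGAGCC was found in 6 members, and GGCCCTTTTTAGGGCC only in Hist1h4i and Hist2h4. The stem-loop began a median of 31 bases after the stop codon (21 to 58). Of the 40 members whose transcripts hold at least 80 bases after the stop codon, 36 (90.0%) had the motif within those 80 bases, against 5 of 20429 other genes (0.0245%). Those 5 were H2afx, H2bfm, Gm9507, Lman2l and Lrrc75b. H2afx is a gene outside the Hist-named rows that encodes the variant H2A.X, and H2bfm is by its name a histone gene too. A match describes letters in a transcript and does not show which 3′ end was used in liver. Some members without a match have a GENCODE transcript that ends at the stop codon, where none could be found.

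In the libraries themselves, total counts were even, from 20340994 to 20817837. The hepatocyte marker list (Alb, Ttr, Hnf4a and others, 10 of 10 detected) summed to between 129107 and 153535 CPM (counts per 1000000 counts of the library, scaled by trimmed mean of M values). Cre replicate 10 stood apart: it had 5 counts of Xist, the RNA that coats the inactive X chromosome, against 15778 to 22413 in the other libraries, and 1676 counts of the Y-linked Ddx3y against 0 to 1. Values without it are given for some of the results that it moved. Of the 14374 genes that passed the low-count filter, none was called at an adjusted p under 0.05 (edgeR quasi-likelihood test, Benjamini-Hochberg over all tested genes, smallest adjusted p = 0.816), and 778 had an unadjusted p under 0.05. DESeq2 called 3 genes and had 520 at an unadjusted p under 0.05. Nothing in the labels says that the libraries of a group came from separate animals, so these p-values measure the spread between libraries, which may be technical.

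Histone cluster transcripts made up a very small part of the libraries. The 69 members together had 1857, 1752 and 1851 counts in Cre and 1804, 2084 and 2019 in Cre-miR122, which is 0.00861% to 0.0101% of all counts. The groups overlapped. The counts were also concentrated: 9 members had 0 counts in all 6 libraries, 21 had 1 to 5 in total, 30 had 6 to 59 and 9 had 60 or more. Hist1h2bc, Hist1h1c and Hist2h2be held 90.1% of all counts of the family (89.2% to 92.1% by library), and the other 66 members shared 1125 counts. By class, H2B took 57.7% of the family's counts and H1 34.9%, while H4 (2.95%), H2A (2.31%) and H3 (2.13%) were each far below. Nearly all of the H2B count came from Hist1h2bc and Hist2h2be, and nearly all of the H1 count from Hist1h1c, so the class shares are those of 3 genes.

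**Figure D1:**
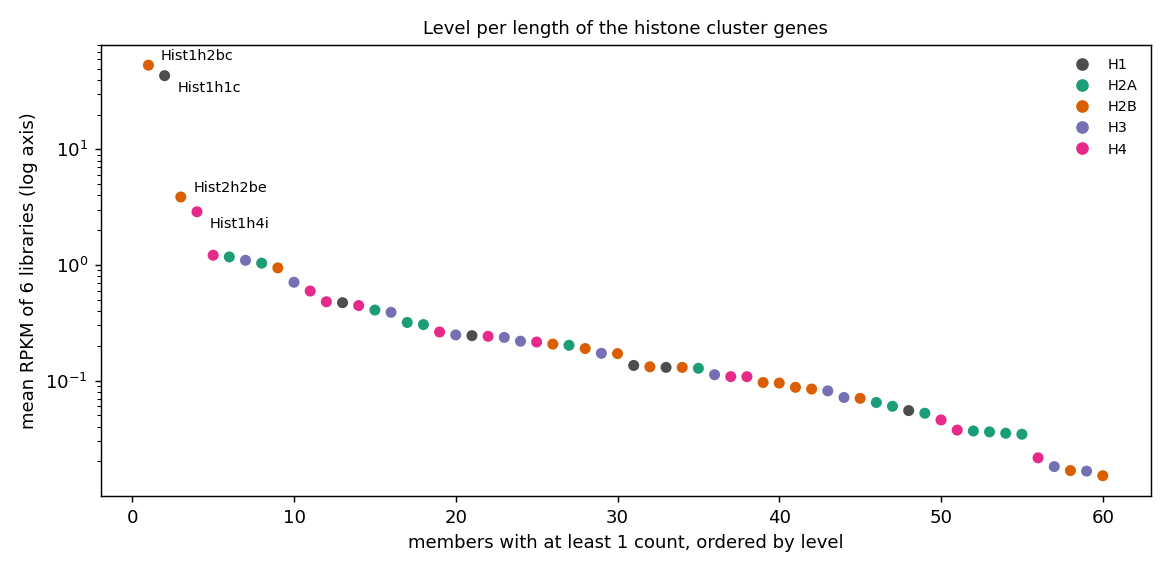
Mean level of each of the 60 histone cluster genes with at least 1 count, as CPM per kilobase of the counted gene model (RPKM, log axis), over the 6 libraries, ordered from highest to lowest on the x axis and coloured by histone class. Hist1h2bc at 53.6 and Hist1h1c at 43.4 stand above all others, followed by Hist2h2be at 3.88 and Hist1h4i at 2.89.

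Levels of different genes were compared per length, as CPM divided by the length of the counted model in kilobases (RPKM). Hist1h2bc, which encodes an H2B, had the highest level at 53.6 ± 3.81 RPKM (SD, n = 6), and the linker histone gene Hist1h1c (H1.2) followed at 43.4 ± 8.82. Their ranges over the libraries overlapped (49.4 to 59.7 and 28.3 to 52.7), so their order is not settled by these libraries. Hist2h2be, a further H2B gene, came next at 3.88 ± 0.805 RPKM, and its range did not reach that of Hist1h1c. The H4 gene Hist1h4i had 2.89 ± 1.06 RPKM. The next levels followed without a gap: Hist1h4h had 1.22 RPKM, Hist2h2aa2 1.18, Hist2h3c1 1.10, Hist2h2aa1 1.04, Hist1h2bg 0.945 and Hist2h3c2 0.710. From Hist2h2be to Hist2h3c2, each gene's range overlapped that of the next. The median member had 0.128 RPKM. On the same scale the replacement variants, which are made outside S phase and mostly from polyadenylated transcripts, were higher than most members: H3f3a (H3.3) had 135 ± 4.48 RPKM, H3f3b (H3.3) 104 ± 3.96, H2afz (H2A.Z) 81.9 ± 10.3 and H1f0 (H1.0) 62.1 ± 6.55, all SD over n = 6. H2afx, at 13.1 ± 1.47 RPKM, lay between Hist1h1c and Hist2h2be.

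The leading members differed in gene structure. Neither Hist1h2bc nor Hist2h2be had the stem-loop motif in its GENCODE transcript. The counted model of Hist1h2bc (chr13:23684199-23692480, plus strand, 774 bases) has 2 exon blocks. The annotated transcript of this gene is spliced from shortly after the stop codon to the second exon. The counted block with the stop codon runs 55 bases past it. In the 44 counted models that end within 10 bases after a stem-loop, this distance was 42 to 79 bases. Only 728 of the 774 counted bases are in the annotated transcript, and the others were not searched for the motif. Hist2h2be (chr3:96221072-96223738, plus strand) is a single block of 2667 bases with a long 3′ part. Hist1h1c (chr13:23738807-23739531, plus strand, 725 bases) has the stem-loop, but its GENCODE gene runs on for 840 bases after it. Of the 46 members with a stem-loop, 24 have a GENCODE gene that ends more than 100 bases past it, and these 24 held 39.6% of the family's counts, most of it from Hist1h1c. The other 23 of them held 5.56%. The 22 members whose GENCODE gene ends within 100 bases of the stem-loop held 363 counts or 3.19%. The 23 members with no motif in their transcripts held 57.3%, almost all of it in Hist1h2bc and Hist2h2be. Median counts over the 6 libraries were 12, 7 and 4 for these sets, in that order. Some of the 23 members with no motif have a GENCODE transcript that ends at the stop codon. No motif could be found in those, so this set cannot be read as genes without a stem-loop.

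**Figure D2:**
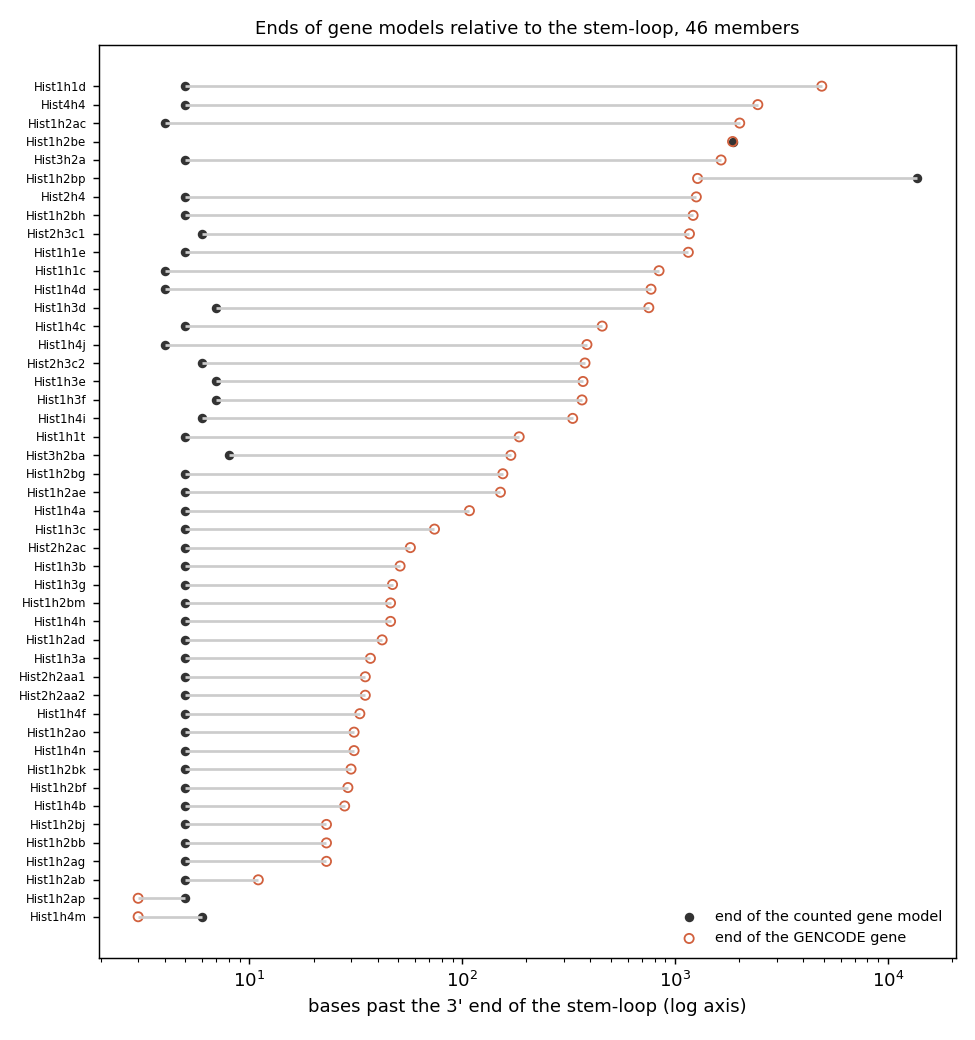
Distance in bases (log axis) from the 3′ end of the stem-loop to the end of the counted gene model (filled) and to the end of the GENCODE gene (open) for each of the 46 members with the motif. Of the counted models, 44 stop within 10 bases of the stem-loop, while 24 GENCODE genes extend more than 100 bases beyond it.

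The counted models bear on these levels. In 44 of the 46 members with a stem-loop the counted model stops within 10 bases after it, so reads from a longer 3′ end would fall outside the model. For Hist1h1c the counted model ends 4 bases after the stem-loop and for Hist1h4i 6 bases after it, where the GENCODE gene of Hist1h4i runs on for 330 bases. Hist1h2be is an exception, with a counted model that ends 1861 bases after the stem-loop, and Hist1h2bp is the other. How many reads lie beyond the counted ends was not tested. Counting also meets near-identical copies: in 45 members more than 50% of the 50-base words of the model are found in another gene, and in 19 more than 80%. The share was 100% for Hist2h2aa2 and Hist2h3c2, 97.6% for Hist2h3c1, 96.1% for Hist2h2aa1, 55.4% for Hist1h4i, 51.6% for Hist1h2bc, 19.1% for Hist1h1c and 0% for Hist2h2be. The sources used here do not say how reads matching several places were counted, so the levels of the near-identical genes are uncertain, and a 0 among them need not mean that the gene was silent. Of the 9 members with 0 counts, 5 shared more than 50% of these words, as did 45 of all 69 members. Counts of 0 were found in 4 of 19 members with over 80% shared, in 1 of 26 with 50 to 80% and in 4 of 24 with up to 50%.

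The members sit in clusters, and the counts came from a few of the positions. The 31 members at chr13:23531044-23934913 held 83.0% of the counts of the family, while the 23 members at chr13:21715713-22043658 held 2.91%. The 10 members at chr3:96219916-96270192 held 13.95%, the last member of chromosome 13, Hist1h2al, none, and the 3 on chromosome 11 and 1 on chromosome 6 less than 0.1% each. In 13 places an H2A and an H2B gene lie head to head with starts at most 500 bases apart. Levels within such pairs could differ widely. Hist1h2bc had 5106 counts over the 6 libraries, and Hist1h2ac, which starts 239 bases away on the other strand, had 19. Hist2h2be had 1272 counts and its neighbour Hist2h2ac, 191 bases away, had 2. The other 11 pairs had at most 54 counts for either gene.

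Promoters were searched in the RefSeq sequences (build GRCm38.p6) from 250 bases before to 50 bases after each start, which were held for 62 members. None was held for Hist1h2bc or Hist2h2be, the H2B genes with the most counts, so their promoters were not searched. CCAAT, on either strand, was found in 53 of 62 members (85.5%) against 41.0% of 26963 other genes. It was in every H1, H2A, H2B and H3 promoter that was held and in 3 of 12 H4 promoters. TATAAA, on the sense strand, was found in 48.4% of members against 9.68% of other genes. The octamer ATTTGCAT, known as a binding site of Oct factors in H2B promoters, was found on either strand in 14 of 62 members (22.6%) against 1.92% of other genes. It was in 7 of 18 H2A and 7 of 16 H2B promoters and in none of the other classes. Head-to-head pairs share part of this sequence, so these matches are not independent.

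Between the vectors, no histone cluster gene was called. The filter left 10 of the 69 members, and 0 of these 10 were called, against 0% of all tested genes (edgeR quasi-likelihood test). DESeq2 and limma-voom also called 0 of the 10, with 0 and 1 of them at an unadjusted p under 0.05, where 3.62% and 5.54% of all genes were. In the edgeR fit none of the 10 reached an unadjusted p under 0.05, where 5.41% of all genes did, and in none did the 3 Cre-miR122 libraries lie wholly above or below the 3 Cre libraries, where 11.1% of all genes did. Of the 10, 7 had a fitted log2 difference above 0 (Cre-miR122 over Cre), as did 49.4% of all genes. Their median was 0.20 beside -0.0029 for all tested genes. A median over all genes is given for this fit alone. The median of the members was 0.305 over the 60 fitted with no filter, 0.306 over the 10 with a term for sex and 0.19 over the 11 that passed without Cre replicate 10. The sex term marks Cre replicate 10 alone, so it is not a check separate from leaving that library out. Hist2h3c2 passed the filter only without that library, so the last of these medians covers a different set of members. These 10 are among the members with the most reads, so the median does not describe all 69. In bulk liver, fewer cells making a transcript and less transcript per cell cannot be told apart.

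**Figure D3:**
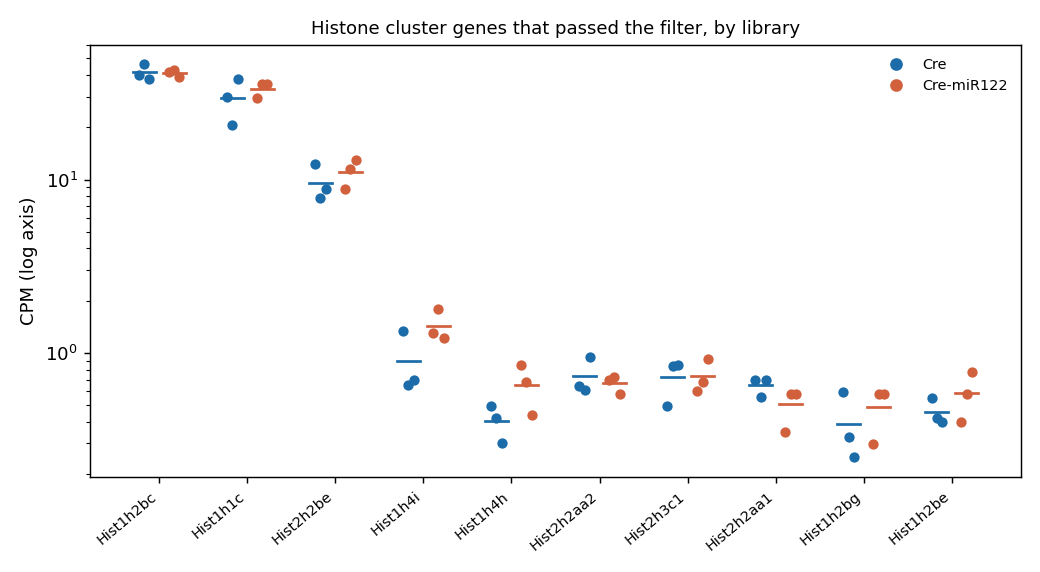
Level in CPM (log axis) of the 10 histone cluster genes that passed the filter, with 1 point per library and a bar at the group mean (n = 3 in each group). The groups overlap for every gene, Hist1h4i included (0.897 ± 0.382 CPM in Cre and 1.43 ± 0.312 in Cre-miR122, mean and SD).

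Hist1h2bc, the H2B gene with the highest level, had the narrowest interval of the 10 tested members. It had 813, 992 and 764 counts in Cre replicates 10, 11 and 12, and 842, 889 and 806 in Cre-miR122 replicates 1, 2 and 4. The Cre libraries spanned a wider range than the Cre-miR122 libraries and enclosed them. The level was 41.6 ± 4.17 CPM (SD, n = 3) in Cre and 41.3 ± 2.07 in Cre-miR122, a log2 fold change of -0.01 (95% interval -0.22 to 0.20, edgeR quasi-likelihood adjusted p = 0.984).

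Hist1h1c had 601, 440 and 764 counts in Cre and 592, 734 and 733 in Cre-miR122. Cre replicate 11 was the lowest and Cre replicate 12 the highest of all 6, so the Cre group enclosed the other. The means were 29.5 ± 8.85 CPM and 33.5 ± 3.44 CPM, with a log2 fold change of 0.18 (95% interval -0.25 to 0.62, edgeR adjusted p = 0.853). Without Cre replicate 11 the log2 fold change was -0.02, and without Cre replicate 12 it was 0.42. The ratio of Hist1h1c to Hist1h2bc per length was 0.789, 0.474 and 1.07 in Cre and 0.751, 0.881 and 0.971 in Cre-miR122. Cre replicate 11 had the lowest Hist1h1c level and the highest Hist1h2bc level of the 6 libraries. Its 30 S phase genes were also lower, with a median deviation of -0.12 (log2 of CPM + 0.5) from the mean of the 6 libraries. In the same library this deviation was -0.18 for the replacement variants and -0.14 for the tested members. The lower values were thus not confined to S phase genes. Whether they have a part in the spread of Hist1h1c was not tested.

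Hist2h2be had 247, 167 and 176 counts in Cre and 176, 239 and 267 in Cre-miR122. Cre replicate 10 lay among the higher Cre-miR122 libraries, and Cre-miR122 replicate 1 among the lower Cre libraries. The means were 9.61 ± 2.33 and 11.1 ± 2.11 CPM, and the log2 fold change was 0.21 (95% interval -0.23 to 0.64, edgeR adjusted p = 0.837). Without Cre replicate 10 it was 0.42 ± 0.178 (SE) with an edgeR adjusted p of 0.848, and without Cre replicate 11 it was 0.08.

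Among the H4 genes, Hist1h4i had 27, 14 and 14 counts in Cre and 26, 37 and 25 in Cre-miR122. Both Cre libraries 11 and 12 lay below all Cre-miR122 libraries, and Cre replicate 10 lay among them. The log2 fold change was 0.68 ± 0.324 (SE, 95% interval -0.05 to 1.41, edgeR adjusted p = 0.816). Without Cre replicate 10 it was 1.08 ± 0.316 with an edgeR adjusted p of 0.793. In that fit 2 of 11 tested members, Hist1h4i and Hist2h2be, had an unadjusted p under 0.05, where 5.64% of all genes did, and none was called. Hist1h4h, whose model shares 50.8% of its 50-base words with other genes, had 10, 9 and 6 counts in Cre and 17, 14 and 9 in Cre-miR122. Cre-miR122 replicate 4 fell among the Cre libraries, and the log2 fold change was 0.68 (95% interval -0.16 to 1.51, edgeR adjusted p = 0.816). Without Cre replicate 10 the log2 fold change of Hist1h4h was 0.84.

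The other 5 tested members had between 5 and 19 counts in any library. The H2A genes Hist2h2aa1 and Hist2h2aa2 lie side by side on chromosome 3 as near-identical copies. Hist2h2aa1 had 14, 12 and 14 counts in Cre and 7, 12 and 12 in Cre-miR122, and Hist2h2aa2 had 13, 13 and 19 in Cre and 14, 15 and 12 in Cre-miR122. Both overlapped between groups, with log2 fold changes of -0.36 (95% interval -1.09 to 0.36) and -0.13 (-0.81 to 0.55). The H3 gene Hist2h3c1 had a log2 fold change of 0.01 (-0.72 to 0.73). The H2B genes Hist1h2be and Hist1h2bg had 0.36 (-0.44 to 1.16) and 0.32 (-0.66 to 1.30), and 0.51 and 0.74 without Cre replicate 10. All 5 intervals include 0 and reach at least 0.73 log2 units from it in 1 direction, so differences up to that size are within them.

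**Figure D4:**
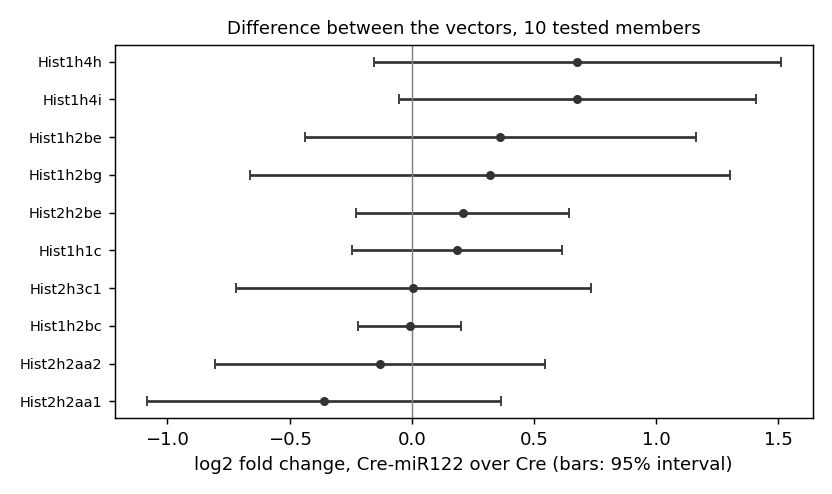
Log2 fold change of Cre-miR122 over Cre for the 10 tested histone cluster genes from the edgeR quasi-likelihood fit, with 95% intervals (n = 3 libraries in each group). All intervals include 0, the narrowest being that of Hist1h2bc (-0.22 to 0.20) and the widest that of Hist1h2bg (-0.66 to 1.30).

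Summed over all 69 members, the level was 88.7 ± 6.13 CPM (SD, n = 3) in Cre and 96.1 ± 5.57 in Cre-miR122, a log2 ratio of 0.12 with overlapping groups. Without Hist1h2bc the log2 ratio was 0.22, and without Hist1h2bc, Hist1h1c and Hist2h2be, a choice made after the values were seen, it was 0.34. By class, the log2 ratio of the summed level was 0.20 for H1, -0.04 for H2A, 0.04 for H2B, 0.20 for H3 and 0.57 for H4. The libraries overlapped between groups in every class. Leaving out single libraries moved the H1 ratio from 0.004 (without Cre replicate 11) to 0.43 (without Cre replicate 12), and the H2A ratio from -0.18 (without Cre replicate 11) to 0.05 (without Cre replicate 10). The H1 sum is mostly Hist1h1c. The other 5 H1 genes together had 13, 12 and 7 counts in Cre and 23, 16 and 28 in Cre-miR122 without overlap, a log2 ratio of 1.08, which was noticed in the data and not tested. The H4 sum was 3.12, 1.72 and 1.75 CPM in Cre and 3.14, 3.77 and 2.85 in Cre-miR122, so Cre replicate 10 again lay among the Cre-miR122 libraries. Without Cre replicate 10 the H4 log2 ratio was 0.91.

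**Figure D5:**
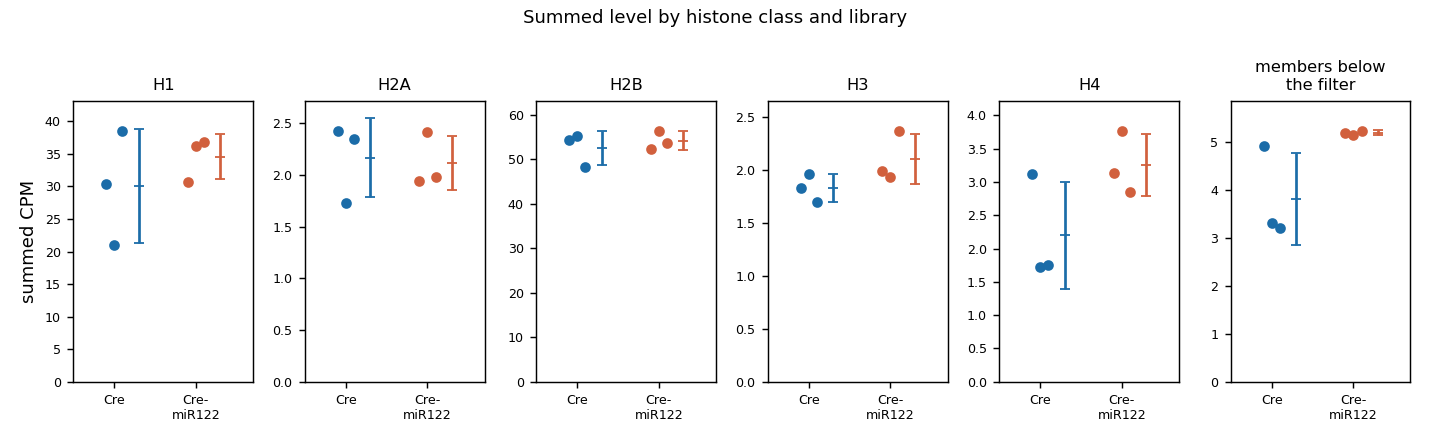
Summed CPM of the members of each histone class and of the 59 members below the filter, with 1 point per library and the group mean ± SD beside it (n = 3 in each group, each axis from 0). The classes overlap between groups, while the members below the filter lie at 3.20 to 4.90 CPM in Cre and at 5.13 to 5.23 in Cre-miR122.

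The 59 members below the filter had 99, 71 and 64 counts in Cre and 104, 106 and 108 in Cre-miR122. All 3 Cre-miR122 libraries were above the Cre libraries, and the exact 95% Poisson intervals of these counts, which cover counting error only, were 80.5 to 121, 55.5 to 89.6 and 49.3 to 81.7 in Cre and 85.0 to 126, 86.8 to 128 and 88.6 to 130 in Cre-miR122. The interval of Cre replicate 12 lay below all 3 Cre-miR122 intervals, that of Cre replicate 10 overlapped all 3, and that of Cre replicate 11 reached their lower ends. Of these 59 genes, 32 had more counts in Cre-miR122, 11 had more in Cre, 7 had equal counts above 0 and 9 had none. The same shares over all genes below the filter were not computed, so these numbers do not show a shift of this family. The log2 ratio of the summed level was 0.44, and 0.67 without Cre replicate 10. This sum was singled out after its values were seen and was given no test. Fitting all 60 members with any count, without the filter, called none (smallest edgeR adjusted p = 0.813). In that fit 4 members had an unadjusted p under 0.05, where 5.01% of all genes did. The H3 gene Hist1h3g had 2, 0 and 1 counts in Cre and 3, 5 and 4 in Cre-miR122. The linker histone gene Hist1h1d had 7, 2 and 5 in Cre and 7, 8 and 16 in Cre-miR122. The H3 gene Hist2h3b went the other way, with 2, 1 and 2 counts in Cre and 0 in every Cre-miR122 library, and Hist1h4i was the fourth.

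The genes that go with histone supply were described from fixed lists. Of the 11 replacement variants, all tested, none was called. A log2 difference above 0 was found in 8, where 49.4% of all tested genes had one, and the median was 0.07. The H3.3 genes and H1f0 had the most counts on the list: H3f3b had 241 ± 10.7 CPM in Cre and 248 ± 8.55 in Cre-miR122 (SD, n = 3), H3f3a 150 ± 5.39 and 144 ± 1.58, and H1f0 137 ± 19.6 and 148 ± 9.17. H2afz had 81.0 ± 12.7 and 94.2 ± 3.14 CPM, with a log2 fold change of 0.22 (edgeR adjusted p = 0.816), and of 0.33 without Cre replicate 10. Cenpa, the centromeric H3 variant, had a log2 fold change of 0.30, H2afj -0.17, H2afx 0.07 and H1fx 0.48, the last of these 1.04 without Cre replicate 10. Of 20 genes for making and degrading histone mRNA, 19 were tested and none was called, with a median of 0.01. Slbp, whose protein binds the stem-loop, had 489, 546 and 428 counts in Cre and 503, 493 and 464 in Cre-miR122, and the groups overlapped. Npat, which encodes the coactivator of histone gene transcription at the histone locus body, had 9.03 ± 0.556 and 9.96 ± 0.792 CPM, a log2 fold change of 0.14. Eri1, an exonuclease that trims histone mRNA ends, had 13.1 ± 1.27 and 15.2 ± 0.154 CPM with no overlap and an edgeR adjusted p of 0.816. Lsm10 and Lsm11, parts of the U7 particle, had log2 fold changes of -0.14 (-0.27 without Cre replicate 10) and 0.13. Zfp473, which encodes a zinc finger protein of histone mRNA 3′ end processing, had 0.503 ± 0.0482 and 0.747 ± 0.187 CPM without overlap, a log2 fold change of 0.57 (edgeR adjusted p = 0.816). Zcchc6, a uridylyltransferase, had 0.14, Srrt -0.11 and Casp8ap2 0.03. Of the 18 histone chaperones, none was called, with a median of 0.05. Among them, Chaf1a of the chromatin assembly factor had 6.22 ± 0.986 CPM in Cre and 7.54 ± 0.250 in Cre-miR122 (edgeR adjusted p = 0.816). Supt16 and Ssrp1, the subunits of the FACT complex, had log2 fold changes of 0.15 and 0.14, and Nasp, an H1 and H3 chaperone, -0.12.

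Of 30 genes for DNA replication and S phase, none was called. A log2 difference above 0 was found in 22, where 49.4% of all tested genes had one, and the median was 0.11. In the edgeR fit 1 of the 30 had an unadjusted p under 0.05, where 5.41% of all tested genes did. It was Ccna2, the cyclin of S phase and G2, with 434, 272 and 410 counts in Cre and 393, 649 and 623 in Cre-miR122 (log2 fold change 0.57, edgeR adjusted p = 0.816). Cre-miR122 replicate 1 lay among the Cre libraries. Pcna, the sliding clamp of replication, had a log2 fold change of -0.09, Rrm2, a subunit of ribonucleotide reductase, 0.25, Ccne2, a cyclin of the G1/S transition, 0.28, and Mcm6, a subunit of the replicative helicase, 0.21. E2f1, an activator of S phase genes, had 4.88 ± 0.176 CPM in Cre and 4.10 ± 0.0771 in Cre-miR122 without overlap, a log2 fold change of -0.25 (edgeR adjusted p = 0.816). The summed level of the list was 462 CPM in Cre replicate 11 and 553 to 593 in the other libraries. Without Cre replicate 11 the log2 fold change was 0.09 for Rrm2, 0.36 for Ccna2 and 0.09 for Mcm6, and without Cre replicate 10 it was 0.12 for Ccne2. Mki67, a marker of dividing cells, had 1210, 813 and 1006 counts in Cre and 1325, 1585 and 1540 in Cre-miR122 without overlap. Its log2 fold change was 0.55 (95% interval 0.22 to 0.89), and its edgeR adjusted p was 0.816. The log2 fold change of Mki67 was 0.72 without Cre replicate 10 and 0.39 without Cre replicate 11. Whether the share of dividing cells has a part in the sums of the low members was not tested.

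RNAs that lack a poly(A) tail were described from a list as well. Of the 17 on the list, 2 passed the filter, Malat1 and Neat1, and these are stabilised by other 3′ structures or have a polyadenylated form. Malat1 had 79.8 ± 18.8 CPM in Cre and 69.2 ± 8.03 in Cre-miR122. The others were near the floor: Rmrp, the RNA of RNase MRP, had 0 counts in every library, Rpph1, the RNA of RNase P, had 0 to 3 and Terc, the telomerase RNA, had 3 to 7. A count of 0 allows up to 3 counts per library. The amounts of these RNAs in the tissue are not known here, and how well they were captured was not tested.

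Markers of other cell types were summed beside these results. The B and plasma cell list (8 of 8 genes tested) summed to 25.9 to 33.7 CPM in Cre and 15.4 to 21.5 in Cre-miR122, and the neutrophil list (7 of 8 tested) to 16.8 to 20.9 and 13.4 to 14.96, both without overlap and in the direction opposite to the low histone members. No gene of either list was called. In the edgeR fit 5 and 3 of their genes had an unadjusted p under 0.05, all with lower values in Cre-miR122. Of all tested genes, 5.41% had such a p in either direction. The erythroid list summed to 415 to 803 CPM in Cre and 621 to 677 in Cre-miR122, with overlap, as did the lists for T and NK cells (8.12 to 11.2 and 7.63 to 8.23), Kupffer cells and macrophages (474 to 581 and 399 to 531), sinusoidal endothelium (325 to 407 and 324 to 392), stellate cells (658 to 924 and 736 to 845) and cholangiocytes (62.1 to 73.8 and 63.0 to 77.3). Of the 8 cardiomyocyte markers Myh7 and Actc1 were at 0 in all libraries. That list summed to 1.35 to 2.08 CPM in Cre and 0.629 to 2.84 in Cre-miR122. Of the 8 male germ cell markers Prm1, Prm2, Tnp1, Tnp2, Acrv1 and Odf1 were at 0. Their list summed to 0.233 to 0.446 CPM in Cre and 0.194 to 0.580 in Cre-miR122. The testis-specific histone members Hist1h2aa and Hist1h2ba had 0 counts throughout, and Hist1h1t had 1, 0 and 0 in Cre and 0, 1 and 3 in Cre-miR122. What part the cell types have in the histone counts was not tested.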

How the data were processed

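RNA-seq of 6 mouse liver libraries was used, 3 per vector. The deposited table holds raw counts per gene with a gene length column. Reads were aligned with STAR 2.7.9a and counted with featureCounts 2.0.1 on GRCm38/mm10, per the submitters' processing notes. Not given in these sources are the annotation, the strand setting and how reads matching several places were treated. Another 5 columns of per-sample counts match no labelled sample and were not used. The count test was the edgeR 4.0.16 quasi-likelihood F test (R 4.3.3) with trimmed mean of M values scaling, the filterByExpr filter and a model with group alone, over all genes, two-sided, with Benjamini-Hochberg adjustment over the 14374 genes that passed. The common biological coefficient of variation was 11.8%. CPM and RPKM were computed from the counts with scaled library sizes and the length column. Standard errors came from the F statistic. Alternatives were other scalings and filters, DESeq2 1.42.0, limma 3.58.1 (voom), robust dispersion, a term for sex read from Xist and Y-linked genes, and leaving out each library. The sex term marked Cre replicate 10 alone, so it and leaving that library out are not separate checks. The fit was tested on simulated counts, and the stem-loop pattern on made-up sequences. The other steps of the sequence work were not tested in this way. Total counts of 20340994 to 20817837 per library set the precision, and members with few counts are limited by counting error.

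The members and lists were chosen with earlier results of these data known. Genes named were every member past the filter, the 10 members with the highest level per length, up to 4 genes of smallest p from each of the lists of replacement variants, histone mRNA processing, chaperones, S phase genes and RNAs without a poly(A) tail, and a fixed set of 20 genes; Hist1h3g, Hist1h1d, Hist2h3b and the head-to-head neighbours were named after their values were seen. All 69 members matched a GENCODE M21 gene and a RefSeq gene by symbol.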

Additional observations from a re-analysis of the deposited data

How the results depend on the processing

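No histone cluster gene was called under any scaling, filter, tool or left-out library tried. The number of all genes called was 0 in the reported fit, 2 with no filter on low counts and 3 with DESeq2, and 0 under the other settings. The log2 ratio of the summed level of the 69 members was 0.12 as reported, 0.22 without the member with the most counts, and 0.34 without the 3 members with the most counts, an alternative chosen after seeing the data. It ran from 0.059 to 0.16 when libraries were left out in turn, and the median of the tested members, 0.20 as reported, from 0.096 to 0.27. That median was 0.305 with no filter (60 members) and with at least 10 counts over the 6 libraries (32 members), and 0.306 with the sex term. Left-out libraries moved Hist2h2be from 0.076 to 0.42, Hist1h4i from 0.48 to 1.08 and Hist1h2bg from 0.094 to 0.74. Some differences near 0 changed sign. Hist2h3c1 had a log2 fold change of 0.006 as reported, -0.016 with no scaling beyond total counts, -0.010 with upper-quartile scaling and -0.20 with the sex term. Slbp had 0.005 as reported, -0.019 with no scaling and -0.011 with upper-quartile scaling. With single libraries left out, the ranges were -0.022 to 0.42 for Hist1h1c, -0.066 to 0.074 for Hist1h2bc, -0.25 to 0.096 for Hist2h2aa2, -0.20 to 0.13 for Hist2h3c1, -0.062 to 0.060 for Slbp, -0.043 to 0.097 for Casp8ap2, -0.030 to 0.21 for H2afx and -0.42 to 0.029 for Neat1. The cause was not tested. No paired analysis was possible because the replicate numbers of the groups (10, 11 and 12 against 1, 2 and 4) share none. Depth limits the members: 60 of 69 had under 60 counts over the 6 libraries.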
